A study of Mus musculus with 6 samples.

Results

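The immunity-related GTPases are the subject here, 7 of the 24346 genes in the files: *Igtp*, *Irgm1*, *Irgm2*, *Iigp1*, *Tgtp1*, *Tgtp2* and *F830016B08Rik*. They were matched by symbol, and all 7 were present and passed the filter on low values. The genes were selected from values measured in these same libraries, so their levels and differences are a description and carry no *P* value. Heart RNA of C57BL/6J male mice was sequenced in 6 libraries, 2 in each of 3 groups. The C mice were fed ordinary chow, and the N mice were given a diet rich in fat, cholesterol and sucrose with added bile acid (the NASH diet). The NP mice received the NASH diet with pemafibrate, a selective PPARα modulator, at 0.1 mg/kg. No group carried a genetic change. The sample labels give 3 weeks of feeding in all 3 groups, whereas the study's methods give a longer time, and the labels' extraction protocol names the liver although the tissue label is heart.

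Immunity-related GTPases are large GTP-binding proteins that defend mouse cells from within against bacteria and parasites enclosed in vacuoles. Their transcription is switched on mainly by interferon-gamma, which signals through the receptor subunits Ifngr1 and Ifngr2 and the kinases Jak1 and Jak2. Transcription factors switched on in this way bind a DNA element called GAS, and Irf1, Irf9 and other factors bind a second element called ISRE. *Igtp*, *Irgm1* and *Irgm2* encode the regulators of the family, known as the GMS class, which sit on the cell's own membranes and hold the effectors inactive there. *Iigp1*, *Tgtp1* and *Tgtp2* encode effectors, known as the GKS class, which load onto the vacuole and break it. *F830016B08Rik* is listed in these data under a clone symbol, and no role is given for it here.

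FPKM is a level per gene normalised for transcript length and for library depth (fragments per kilobase and per mapped fragment total), so levels of different genes can be set side by side. The depth, estimated from the steps of the FPKM values, was 26000000 and 21300000 reads in C and between 8210000 and 8760000 reads in the N and NP libraries, so depth cannot be told apart from diet in comparisons with C. Cardiomyocyte markers were at the level of a heart in every library, with a summed FPKM of 46993 to 68435 over 7 genes. Markers of atrial cardiomyocytes set the C libraries apart (summed FPKM of *Myl7*, *Myl4*, *Sln* and *Nppa* 307 and 171 in C, 3647 and 5117 in N, 3704 and 6124 in NP). The 5 hepatocyte markers summed to 421 in C replicate 2 and to at most 31.1 in the other libraries. Of these, *Alb*, *Apoa1*, *Ttr* and *Serpina1c* were higher in both C libraries than in every N and NP library. *Alb* had an FPKM of 10.8 and 211 in C, 0.555 and 1.25 in N and 2.04 and 1.72 in NP. *Cyp2e1* overlapped between the groups and made up 29.9 of the 31.1 in N replicate 1. The labels do not say whether the libraries of a group came from separate mice, so the spread may be technical in part.

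On chromosome 11 of the mm10 genome lie 5 of the genes, in 2 clusters (RefSeq annotation of GRCm38.p6). *Irgm1* (chr11:48865245-48871420), *Tgtp1* (chr11:48985329-48992246) and *Tgtp2* (chr11:49057196-49064212) are on the minus strand, and *Igtp* (chr11:58199556-58207592) and *Irgm2* (chr11:58214977-58222783) are on the plus strand. The clusters are 9.14 Mb apart, *Igtp* and *Irgm2* are separated by 7.38 kb, and *Tgtp1* and *Tgtp2* by 65.0 kb.

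The 120 bases before the annotated start of each of these 5 genes are shown because matches to the elements can be read directly in them. *Irgm1* shows ISRE matches alone, and the others a GAS and an ISRE. The sequences are from RefSeq (GRCm38.p6), 5′ to 3′ on the strand of the gene, and end at the base before the start. Capitals mark matches to the GAS letters TTCNNNGAA and to the ISRE letters GAAANNGAA, which were searched on both strands in the 250 bases before the start. *Iigp1* and *F830016B08Rik* are not in the promoter table.
Igtp, chr11:58199436-58199555, plus strand: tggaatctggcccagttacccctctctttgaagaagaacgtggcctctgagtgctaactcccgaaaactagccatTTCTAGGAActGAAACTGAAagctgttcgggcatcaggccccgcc
Irgm2, chr11:58214857-58214976, plus strand: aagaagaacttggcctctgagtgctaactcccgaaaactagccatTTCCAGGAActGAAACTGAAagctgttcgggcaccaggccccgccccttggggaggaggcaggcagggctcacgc
Tgtp1, chr11:48992247-48992366, minus strand: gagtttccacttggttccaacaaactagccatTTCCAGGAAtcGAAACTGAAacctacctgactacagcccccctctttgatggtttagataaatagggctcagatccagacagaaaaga
Tgtp2, chr11:49064213-49064332, minus strand: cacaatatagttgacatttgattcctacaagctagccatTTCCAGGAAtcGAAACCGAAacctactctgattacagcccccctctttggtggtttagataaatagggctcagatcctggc
Irgm1, chr11:48871421-48871540, minus strand: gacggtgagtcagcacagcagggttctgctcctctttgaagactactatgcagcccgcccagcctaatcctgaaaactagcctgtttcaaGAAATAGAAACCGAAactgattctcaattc

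*Igtp*, *Irgm2*, *Tgtp1* and *Tgtp2* each had 1 GAS followed after 2 bases by 1 ISRE in the same orientation. The GAS began 45 bases before the start in *Igtp*, 75 in *Irgm2*, 88 in *Tgtp1* and 81 in *Tgtp2*. *Irgm1* had no match to the GAS letters and 2 overlapping matches to the ISRE letters, which began 30 and 24 bases before the start. Of 32851 promoters of the same length, 7.02% held the GAS letters, 7.13% the ISRE letters and 0.752% both. The arrangement with 2 bases between them, looked for after it had been seen in these 4 genes, was in 7 promoters, or 0.0213%. These belonged to 6 genes of the files, namely the 4 above, *Gm12185*, which is another gene of the family, and *Olfr382*, an olfactory receptor gene that did not pass the filter on low values. A match of letters is not a measured binding site.

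The level of every gene was low to moderate in C and much higher in N. In whole tissue, more cells of a type and more RNA per cell cannot be told apart, which holds for all levels below. Among the regulators, *Igtp* had an FPKM of 9.47 and 7.74 in C, 397 and 601 in N and 6.46 and 8.97 in NP. The mean was 8.61 ± 1.22 in C and 499 ± 144 in N (SD, n = 2), a ratio of 58.0. *Irgm1* had an FPKM of 11.3 and 10.7 in C, 156 and 281 in N and 10.8 and 11.9 in NP. *Irgm1* and *Irgm2* were higher in N to much the same degree, the N to C ratios of their means being 19.9 and 20.5. *Irgm2* had an FPKM of 10.7 and 10.2 in C, 175 and 252 in N and 7.15 and 9.04 in NP. For all 3 regulators both N libraries lay above all 4 other libraries, and N replicate 2 was 1.44 to 1.8 times as high as N replicate 1.

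Among the effectors, *Iigp1* was the most highly expressed gene of the family in C, with an FPKM of 29.9 and 34.5, against 322 and 566 in N and 14.4 and 21.4 in NP. *Tgtp1* had an FPKM of 1.31 and 1.15 in C, 9.30 and 8.62 in N and 0.557 and 0.766 in NP. *Tgtp2* had an FPKM of 2.81 and 2.46 in C, 37.3 and 33.4 in N and 1.53 and 1.75 in NP. In each of these genes the N libraries again lay above all the others, and the NP libraries lay below the C libraries. *Tgtp1* and *Tgtp2* were the only genes of the 7 with N replicate 1 above N replicate 2, and they were the lowest genes in every group.

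*F830016B08Rik* had the widest range, with an FPKM of 6.26 and 5.98 in C, 575 and 635 in N and 4.22 and 3.68 in NP. Its mean was 6.12 ± 0.197 in C, 605 ± 42.7 in N and 3.95 ± 0.383 in NP (SD, n = 2). The N mean was 98.8 times the C mean and 153 times the NP mean. Its N replicates differed by a factor of 1.10. It was the 148th and 130th most highly expressed of all genes in N against the 7281st and 7471st in C.

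**Figure D1:**
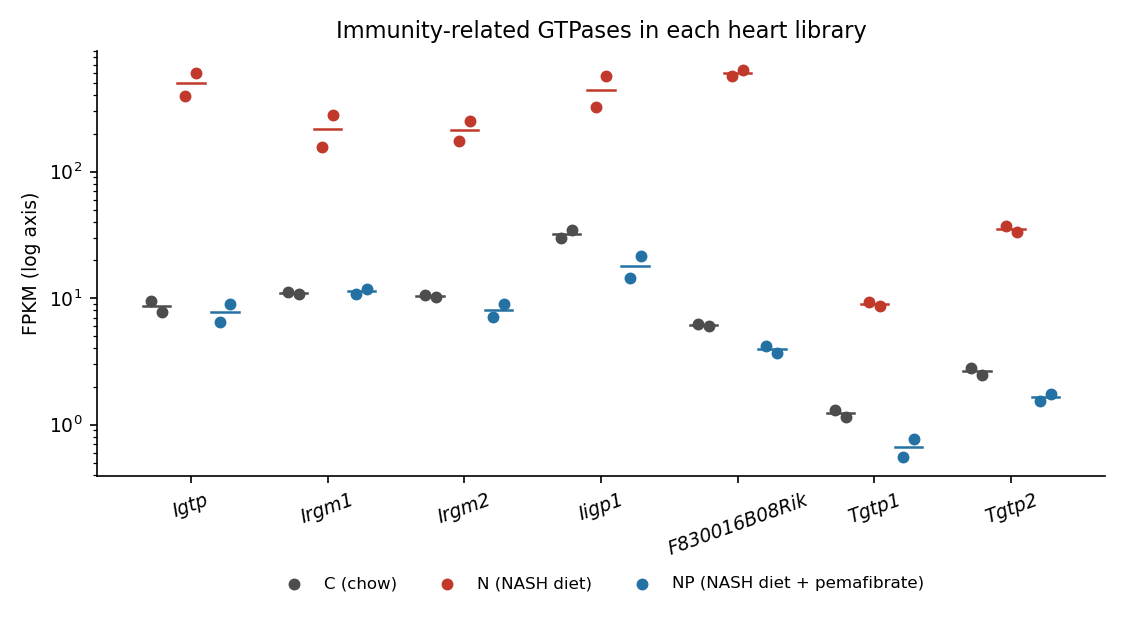
FPKM of the 7 immunity-related GTPase genes in each heart library (log axis); points are libraries, short lines are group means, and colours are the C, N and NP groups (2 libraries each). In each gene both N libraries lie above the C and NP libraries, from 8.62 to 635 FPKM, while the C and NP libraries lie between 0.557 and 34.5 FPKM.

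*Tgtp1* and *Tgtp2* cannot be separated fully in these data. Of the stretches of 75 bases, the read length, in the GENCODE M21 transcripts, 77.2% in *Tgtp1* and 81.4% in *Tgtp2* also occurred in transcripts of another gene, with 2330 shared between the pair. The share was 7.80% in *Igtp* and 4.78% in *Irgm2*, mostly stretches that these neighbours have in common, 0.90% in *F830016B08Rik*, and 0 in *Irgm1* and *Iigp1*. The *Tgtp2* to *Tgtp1* ratio was 2.15 and 2.15 in C, 4.01 and 3.87 in N and 2.74 and 2.29 in NP. This ratio depends on how the authors' software divided the shared reads, so the sum of the pair is the firmer value. The summed FPKM was 4.12 and 3.61 in C, 46.6 and 42.0 in N and 2.09 and 2.52 in NP. *Tgtp1* also rests on few reads, about 12 and 17 in NP, compared with 96 or more in each library for the 5 genes outside the pair.

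In N against C, all 7 genes were higher, by 2.16 (*Tgtp1*) to 6.41 (*F830016B08Rik*) on the scale of log2(FPKM + 1), on which all differences below are given and which makes changes of weakly expressed genes look smaller. The difference was 5.68 ± 0.24 for *Igtp*, 4.13 ± 0.27 for *Irgm1*, 4.21 ± 0.20 for *Irgm2*, 3.69 ± 0.31 for *Iigp1*, 3.32 ± 0.12 for *Tgtp2* and 3.22 for the *Tgtp* sum (± standard error of the limma fit, which pools the spread of the 3 groups). The median of the 7 was 4.13, against -0.03 over all 12923 genes tested. All 7 differed by more than 1.5-fold with no overlap of the libraries, as did 5.08% of all genes tested, and all 7 had a limma adjusted *P* value under 0.05, as did 1.48% in this direction. These counts were fixed by how the genes were selected. Among all genes tested, *F830016B08Rik* had the 5th, *Igtp* the 7th and *Tgtp1* the 90th largest increase.

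With pemafibrate added, all 7 genes were lower in NP than in N. The difference was -6.94 ± 0.11 for *F830016B08Rik*, which was the largest decrease among the 12923 genes, and -5.83 ± 0.24 for *Igtp*, which was the 4th largest. It was -4.54 ± 0.20 for *Irgm2*, -4.53 ± 0.31 for *Iigp1*, -4.09 ± 0.27 for *Irgm1*, -3.78 ± 0.12 for *Tgtp2* and -2.59 ± 0.13 for *Tgtp1*. The median of the 7 was -4.53, against 0.03 over all genes tested. All 7 were lower by more than 1.5-fold without overlap, as were 3.72% of all genes tested, and all 7 had a limma adjusted *P* value under 0.05, as did 1.39% in this direction. These counts, too, were fixed by the selection, and both comparisons use the same N libraries, so they are not independent of each other.

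The levels of the NP and C libraries were far closer to each other than to those of N, and how they lay differed from gene to gene. The NP libraries lay below both C libraries without overlap in 5 genes, *Irgm2*, *Iigp1*, *Tgtp1*, *Tgtp2* and *F830016B08Rik*, and overlapped with them in *Igtp* and *Irgm1*. Of all genes tested, 23.0% were lower in NP without overlap. On the scale of log2(FPKM + 1) *Iigp1* was lower by the most (-0.83 ± 0.31), followed by *F830016B08Rik* (-0.53 ± 0.11), *Tgtp2* (-0.46 ± 0.12), *Tgtp1* (-0.42 ± 0.13) and *Irgm2* (-0.33 ± 0.20). The C to NP ratio of mean FPKM was 1.86 for the weakly expressed *Tgtp1* and 1.8 for *Iigp1*. The differences of *Igtp* (-0.15 ± 0.24) and *Irgm1* (0.04 ± 0.27) were smaller than their standard errors. Only *Iigp1* passed 1.5-fold without overlap on this scale, as did 1.90% of all genes tested in this direction. With a pseudocount of 0.1, 4 of the 7 did, as did 3.01% of all genes tested. None of the 7 had a limma adjusted *P* value under 0.05, and 0.0387% of all genes tested had one in either direction.

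**Figure D2:**
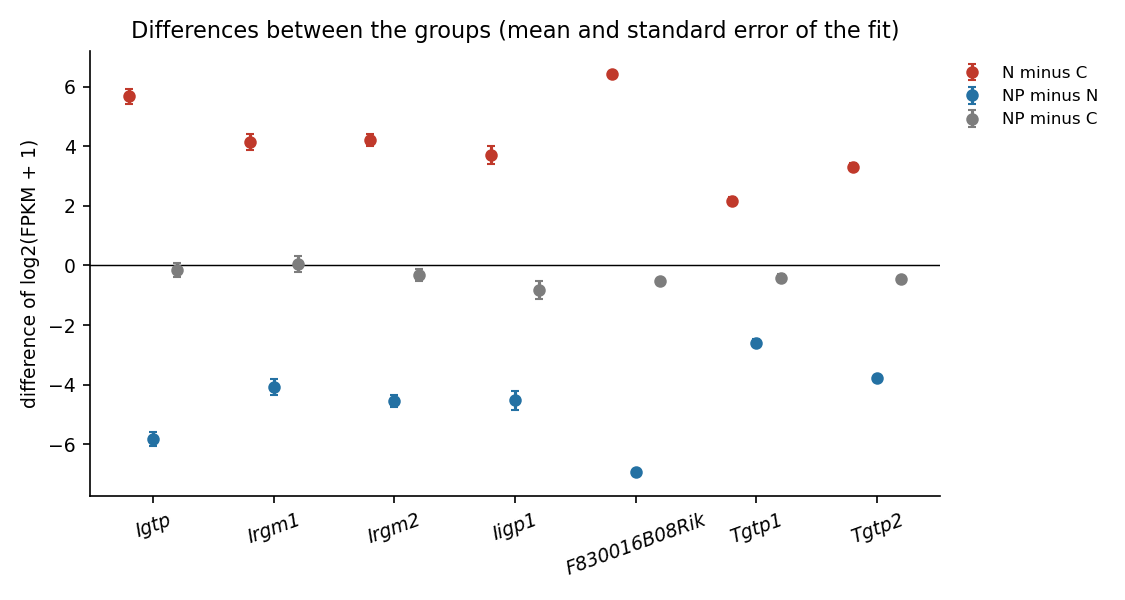
Differences of log2(FPKM + 1) between the groups for each of the 7 genes; points are group differences and bars the standard errors of the limma fit over 6 libraries. The N minus C differences run from 2.16 to 6.41, the NP minus N differences from -6.94 to -2.59, and the NP minus C differences from -0.83 to 0.04.

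The make-up of the family differed between the groups as well as its total. The FPKM of the 7 genes summed to 71.6 and 72.7 in C, 1673 and 2376 in N and 45.1 and 57.5 in NP, which was 0.0115% and 0.0111%, 0.302% and 0.412%, and 0.00823% and 0.00961% of all FPKM. *Iigp1* made up the largest share in C (41.7% and 47.4%) and in NP (31.9% and 37.3%). In the N libraries *F830016B08Rik* was the largest (34.4% and 26.7%), having held between 6.39% and 9.35% in the other libraries. The share of *Igtp* was 23.8% and 25.3% in N and 10.7% to 15.6% in the others. Conversely, *Irgm1* held 9.34% and 11.8% in N and 14.8% to 24% in the others.

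**Figure D3:**
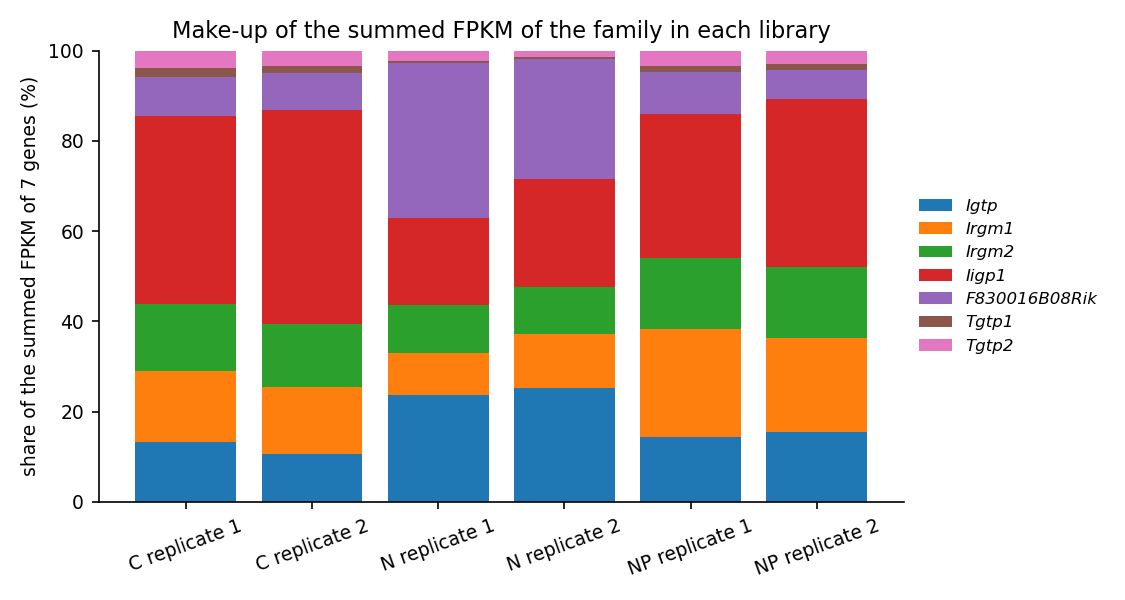
Share of each gene in the summed FPKM of the 7 immunity-related GTPases, one stacked bar per library (percent). *Iigp1* is the largest part in the C and NP libraries (31.9% to 47.4%) and *F830016B08Rik* in N (34.4% and 26.7%).

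The gene lists used from here on were chosen with earlier results of these data known, so calls among them are not independent evidence. Other genes of the family were examined from a list. Of 10 in the files, 8 were tested, and 5 rose in N against C and fell in NP against N. These were *Gm4841* (6.47 and -6.47, limma adjusted *P* = 0.00326 and 0.00309), *Gm12185* (5.15 and -5.28, adjusted *P* = 0.00096 and 0.000841), *Gm12250* (4.91 and -5.03, adjusted *P* = 0.00348 and 0.00309), *Ifi47* (2.42 and -2.59, adjusted *P* = 0.00383 and 0.00305) and *Gm4951* (1.87 and -2.01, adjusted *P* = 0.00953 and 0.00802). The call of *Gm4951* was lost in 2 of 14 alternatives in each comparison. In N against C, those of *Gm4841*, *Gm12250* and *Ifi47* were lost in 1 each. *Gm12185* shares sequence with the *Tgtp* pair, so reads can be divided among them. It passed the filter on low values only through its N libraries. *Irgq*, a member that interferon-gamma does not induce, had an FPKM of 7.55 and 7.28 in C, 7.84 and 7.03 in N and 9.29 and 7.68 in NP (N minus C 0.00, adjusted *P* = 0.998). The N libraries of *Irgq* overlapped with those of C and of NP, and both NP libraries lay above both C libraries (NP minus C 0.17, adjusted *P* = 0.799). *Irgc1*, known from the testis, did not exceed an FPKM of 0.0745 in any library.

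Genes around the clusters were compared within 500 kb, midpoint to midpoint, of *Irgm1*, *Igtp* or *Iigp1*. Around *Irgm1*, the 7 tested genes outside the family had N minus C differences of -0.22 to 0.31, and none passed the limma threshold, nor had an unadjusted *P* value under 0.05. In NP against N these 7 differed by -0.81 to 0.21. None passed the limma threshold, and 2 were lower at an unadjusted *P* value under 0.05. Around *Igtp*, the 11 tested genes outside the family had differences of -0.41 to 0.11, and none passed, with 1 at an unadjusted *P* value under 0.05. The nearest of those tested, *Mrpl22*, a gene of the mitochondrial ribosome 28.8 kb before it on the chromosome, had a difference of -0.41 (adjusted *P* = 0.357), whereas *Gm12250*, a family gene 16.6 kb before it, had 4.91. *Iigp1* and *F830016B08Rik* lie together on chromosome 18, their midpoints 86.8 kb apart. Around *Iigp1*, 1 of 8 tested genes outside the family rose, *Cd74*, the invariant chain of MHC class II (2.59, adjusted *P* = 0.00308), and it fell in NP against N (-2.78, adjusted *P* = 0.00247). In N against C, 3 of the 8 had an unadjusted *P* value under 0.05, of which 2 were lower in N. Of all 12923 genes tested by limma, 1065 were higher and 873 lower in N against C at that threshold. In NP against N, 285 were higher and 754 lower.

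**Figure D4:**
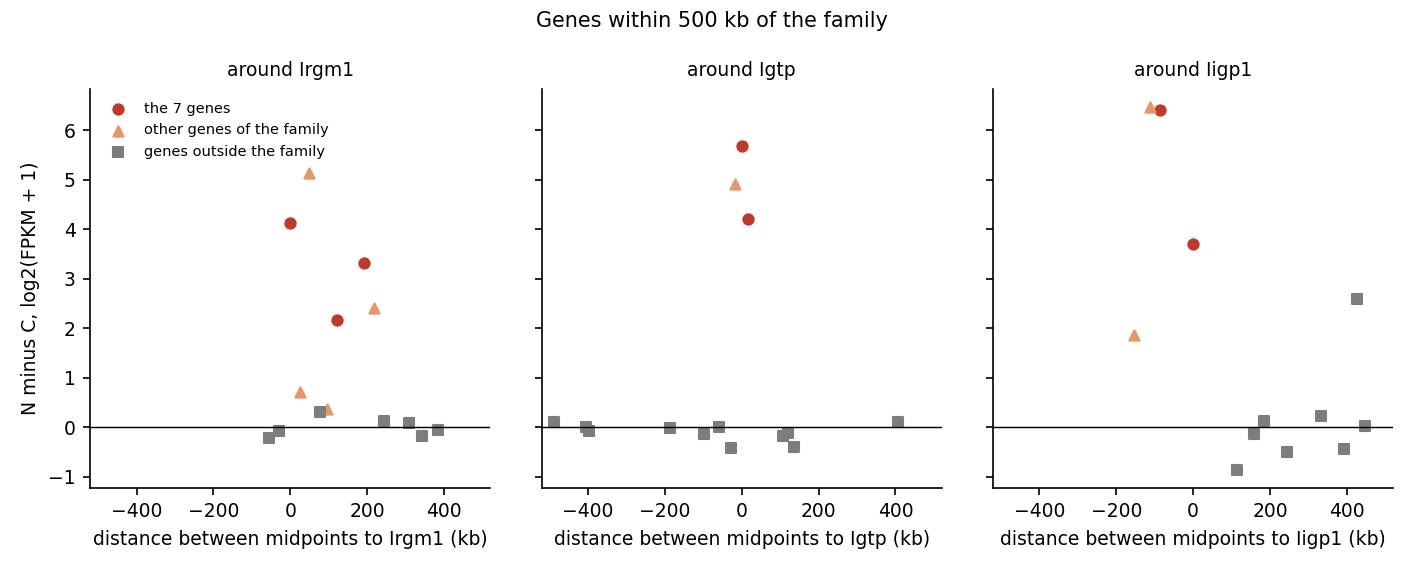
N minus C difference of log2(FPKM + 1) of each tested gene within 500 kb, against the distance of its midpoint from that of *Irgm1*, *Igtp* or *Iigp1* (kb, in the direction of the chromosome); red circles are the 7 genes, orange triangles other genes of the family, and grey squares genes outside it. The grey squares lie between -0.86 and 0.31 apart from *Cd74* at 2.59.

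*Ifng* and most of its listed inducers were at the limit of detection. *Ifng*, which encodes interferon-gamma itself, was listed at 0 in 5 libraries and at an FPKM of 0.114 in N replicate 2, which is about 1 read; in the N and NP libraries 3 reads would have given an FPKM of 0.340 to 0.362. *Il27*, a cytokine that promotes interferon-gamma production, was listed at 0 in the C and NP libraries and at 0.230 and 0.690 in N, about 1.6 and 5.0 reads. *Il15*, which sustains NK cells, had an FPKM of 15.9 to 31.6 in all libraries with overlapping groups. The type I interferon genes *Ifnb1* and *Ifna4* were listed at 0 in all libraries. A lower level than these reads allow was not detectable at this depth.

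The interferon-gamma receptor genes and the listed kinase genes did not pass the threshold in N against C. *Ifngr1* had an FPKM of 37.9 and 37.0 in C, 45.8 and 34.4 in N and 37.3 and 33.6 in NP (N minus C 0.08, limma adjusted *P* = 0.861), and *Ifngr2* differed by -0.26 (adjusted *P* = 0.462). *Jak1*, *Jak2* and *Tyk2* differed by 0.08, 0.00 and -0.01 (adjusted *P* = 0.864, 0.997 and 0.991).

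Of 12 tested kinase and transcription factor genes, 7 rose in N against C and 7 fell in NP against N, with medians of 1.32 and -1.33. These were *Batf2*, a basic leucine zipper factor induced by interferon (2.52, adjusted *P* = 0.00506), *Nlrc5*, the activator of MHC class I genes (2.13, adjusted *P* = 0.00308), *Ciita*, the activator of MHC class II genes (1.82, adjusted *P* = 0.00326), *Irf9* (1.69, adjusted *P* = 0.00308), *Irf1* (1.55, adjusted *P* = 0.0219), *Stat2* (1.42, adjusted *P* = 0.0220) and *Irf8*, a factor of myeloid cells (1.21, adjusted *P* = 0.0141). From N to NP, the differences were -2.48 for *Nlrc5* (adjusted *P* = 0.00186), -2.24 for *Batf2* (adjusted *P* = 0.00803), -2.07 for *Ciita* (adjusted *P* = 0.00218), -1.69 for *Irf9* (adjusted *P* = 0.00297), -1.54 for *Irf1* (adjusted *P* = 0.0235), -1.36 for *Stat2* (adjusted *P* = 0.0273) and -1.29 for *Irf8* (adjusted *P* = 0.0118). *Stat3*, a factor of cytokine signalling, differed by 0.67 and -0.43 (adjusted *P* = 0.102 and 0.419), and *Irf2*, which opposes Irf1, by 0.35 and -0.31 (adjusted *P* = 0.381 and 0.788). *Tbx21* and *Stat4* did not pass the filter on low values. Their mean FPKM was 0.0616 and 0.0682 in C, 0.582 and 0.324 in N, and 0.0258 and 0 in NP. Among 8 inhibitors of the pathway, *Usp18*, which restrains the type I interferon receptor, rose by 1.39 in N (adjusted *P* = 0.0083), and *Usp18* (-1.41, adjusted *P* = 0.00803), *Ptpn6* (-1.38, adjusted *P* = 0.0372) and *Socs3* (-0.76, adjusted *P* = 0.0473) fell in NP against N. Of 14 alternatives, 13 ended the call of *Socs3* (adjusted *P* = 0.0506 to 0.205) and 10 that of *Ptpn6* (0.057 to 0.195). The decrease of *Stat2* was lost in 8 of them, that of *Irf1* in 7, that of *Irf8* in 6 and those of *Batf2* and *Usp18* in 4 each. The increase of *Stat2* in N against C was lost in 7 of 14. Those of *Irf1*, *Irf8* and *Usp18* were lost in 3 each and those of *Batf2* and *Irf9* in 1 each. *Socs1*, a feedback inhibitor of the Jak kinases, had an FPKM of 0.225 and 0.684 in C, 1.01 and 3.73 in N and 0.480 and 0.927 in NP, and did not pass in either comparison.

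The guanylate-binding proteins are a second family of interferon-gamma inducible GTPases that act on the same vacuoles. All 10 tested genes rose in N against C (median 2.50, range 1.37 to 5.23), and 9 of 10 fell in NP against N (median -2.59). *Gbp10* differed the most (5.23 and -5.35, adjusted *P* = 0.00176 and 0.00154), and *Gbp3* by 3.14 and -3.30 (adjusted *P* = 0.00111 and 0.000952). *Gbp9* differed by -1.15 in NP against N (adjusted *P* = 0.0552). In N against C, the call of *Gbp9* was lost in 7 of 14 alternatives, that of *Gbp6* in 5 and that of *Gbp4* in 1. Those of *Gbp2b* and *Gbp8* were lost in 3 of 13 each. In NP against N, the call of *Gbp8* was lost in 7 of 13, that of *Gbp2b* in 5 of 13 and that of *Gbp6* in 6 of 14. Reads can be divided among these similar genes too. *Gbp2b* and *Gbp8* passed the filter on low values only through their N libraries. Of the 3 tested genes among other inducible GTPases, limma called 0 in either comparison, with 2 and 3 at an unadjusted *P* value under 0.05: *Mx2* differed by 0.20 and -0.75 (adjusted *P* = 0.586 and 0.118) and *Gvin1* by 0.57 and -0.69 (adjusted *P* = 0.177 and 0.168). Of all 12923 genes tested, 1065 were higher in N against C and 754 lower in NP against N at the unadjusted threshold.

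Irgm1 and the effectors are known to act together with the autophagy machinery, of which the Atg3, Atg5, Atg7 and Atg16l1 proteins place the effectors correctly in the cell. Of 20 tested genes of this list, 1 rose in N against C and fell in NP against N. This was *Trim21*, an antibody receptor and ubiquitin ligase (1.56 and -1.63, adjusted *P* = 0.0109 and 0.00991). Its call was lost in 3 of 14 alternatives in N against C and in 5 of 14 in NP against N. The median of the list was -0.06 and -0.02. *Atg5* had an FPKM of 9.01 and 9.57 in C, 8.18 and 9.60 in N and 7.61 and 8.58 in NP, with no separation of the C and N groups. Between NP and C, limma called 0 of the 68 tested genes of the pathway lists, and 1 had an unadjusted *P* value under 0.05. Over all 12923 genes tested limma called 5, and 500 were higher and 540 lower in NP at an unadjusted *P* value under 0.05. A count of 0 calls therefore does not set these lists apart.

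**Figure D5:**
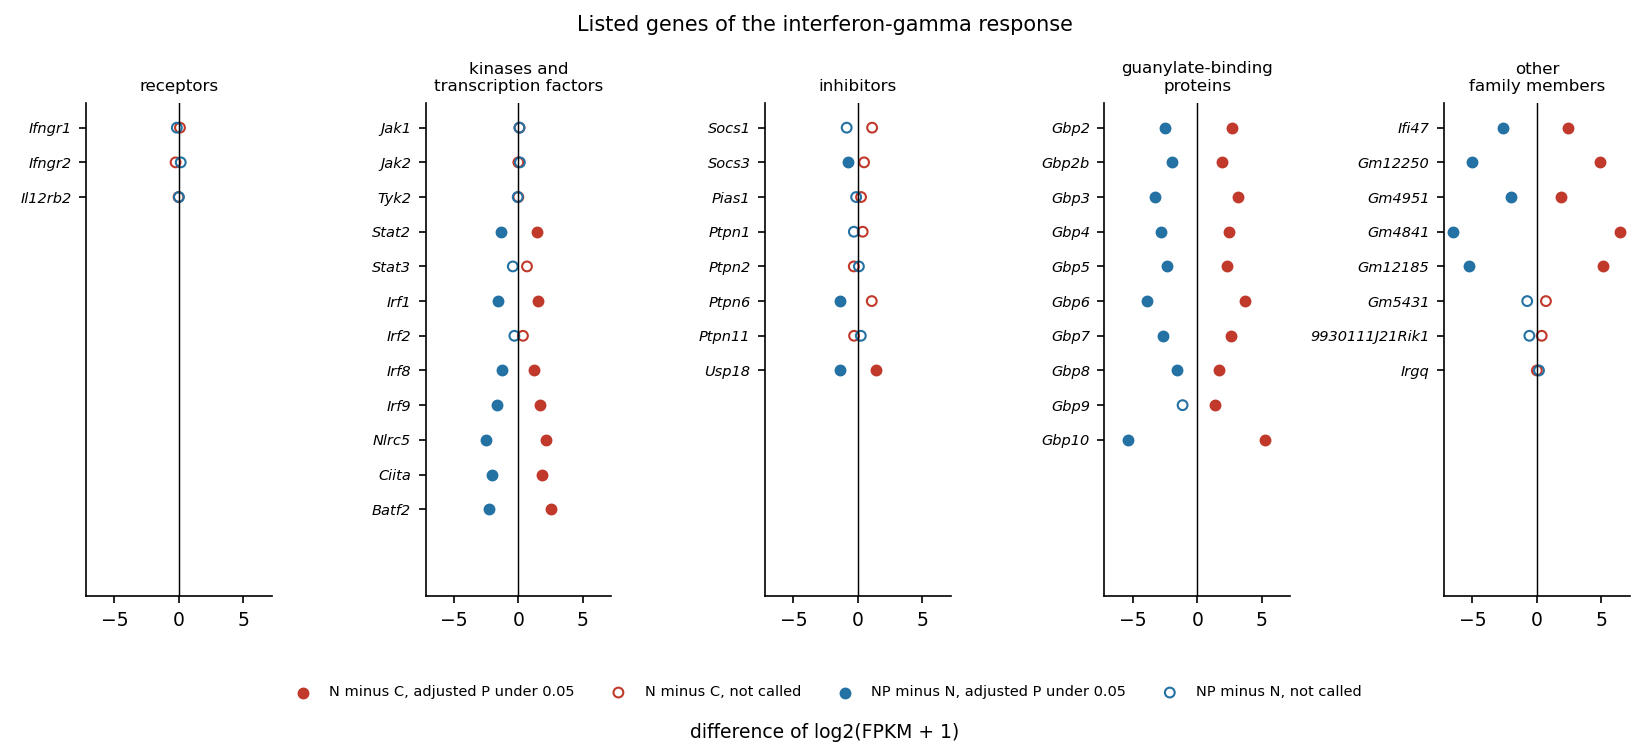
Differences of log2(FPKM + 1) in N against C (red) and NP against N (blue) for tested genes of 5 lists; filled points have a limma adjusted *P* value under 0.05. The 3 tested receptor genes lie near 0, *Nlrc5* at 2.13 and -2.48, and the guanylate-binding proteins between 1.37 and 5.23 and between -5.35 and -1.15.

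Of all genes tested, limma called 1.48% higher in N against C and 1.39% lower in NP against N. Over all pathway lists, which were chosen with earlier results known, 24 of the 68 tested genes were called in N against C and 25 in NP against N. The former was 9 without C replicate 2 and 15 without C replicate 1 or N replicate 2. The latter was 14 without either NP replicate and 16 without N replicate 2 or either C replicate. *Nlrc5*, *Ciita*, *Gm12185*, *Gbp2*, *Gbp3*, *Gbp5*, *Gbp7* and *Gbp10* kept an adjusted *P* value under 0.05 in both comparisons with each library left out and under each other alternative.

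Among the genes whose profile over the 6 libraries was most like the mean of the 7 were *Cd274*, *Gbp3*, *Samhd1*, *Psmb8* and *Gbp7*. Pearson's *r* on log2(FPKM + 1) was 0.999, 0.999, 0.999, 0.998 and 0.998. The 6 libraries fall into high N libraries and low others, so these values describe little more than that split. *Cd274* encodes PD-L1, a ligand that restrains T cells. Its FPKM was 3.95 and 3.21 in C, 45.0 and 53.6 in N and 2.60 and 3.42 in NP.

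Markers of immune cells were examined from lists. The 9 NK cell markers summed to an FPKM of 0.795 and 1.11 in C, 9.18 and 12.9 in N and 0.774 and 0.670 in NP. Of the 3 that were tested, 2 rose in N against C and fell in NP against N, *Nkg7* (1.97 and -2.03, limma adjusted *P* = 0.00515 and 0.00465) and *Gzmb* (1.52 and -1.46, adjusted *P* = 0.0381 and 0.0473). The call of *Gzmb* was lost in 9 and 12 of 13 alternatives. All 3 tested genes passed the filter on low values only through their N libraries (mean FPKM of *Nkg7* 0.146 in C, 3.49 in N and 0.101 in NP). The filter thus favoured a rise in N and a fall in NP for them. The 6 T cell markers summed to 0.639 and 0.573, 3.26 and 2.79, and 0.615 and 0.468, and the 4 B cell markers to 0.967 and 0.737, 5.12 and 5.02, and 1.28 and 1.28. None of the T cell markers passed the filter on low values, and limma called 0 of the 2 tested B cell markers in either comparison, both having an unadjusted *P* value under 0.05. These 2 B cell markers, too, passed the filter only through their N libraries. The defining markers were low, with *Cd3e* at 0.646 and 0.372 and *Ncr1* at 0.542 and 0.911 in N. The 8 macrophage markers summed to 347 and 314, 628 and 536, and 260 and 228. Limma called 3 of 8 higher in N against C and 5 of 8 lower in NP against N. The shares over all genes tested were 1.48% and 1.39%. All 8 were higher in N than in C, 7 of them by more than 1.5-fold without overlap (5.08% of all genes tested). All 8 were lower in NP than in N by more than 1.5-fold without overlap (3.72%). In N against C, the calls of *Adgre1* and *Mrc1* were lost in 8 of 14 alternatives each and that of *C1qb* in 4. In NP against N, the call of *Cd68* was lost in 13 of 14, that of *Mrc1* in 9, that of *Adgre1* in 7, that of *C1qb* in 3 and that of *Lyz2* in 1. The part of these cells in the levels of the family was not tested. The part of the atrial tissue, whose markers are given above, was not tested either. Endothelial and fibroblast markers had median N minus C differences of 0.07 and 0.27, and limma called 0 of their genes, with 1 of each list at an unadjusted *P* value under 0.05. At that threshold 1065 of all 12923 genes tested were higher and 873 lower in N against C. In NP against N, 285 were higher and 754 lower. The 4 adipocyte markers summed to 0.720 and 2.67 in C, 30.5 and 31.3 in N and 3.20 and 25.4 in NP, and their part was not tested.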

How the data were processed

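Heart RNA was sequenced on an Illumina HiSeq instrument as single reads of 75 bases. The authors mapped the reads to mm10 with TopHat2 2.0.13, Bowtie2 2.2.3 and SAMtools 0.1.19, and the deposited values are FPKM per gene from Cufflinks 2.2.1. The annotation and the treatment of reads shared by similar genes are not given in the sources used here.

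Groups were taken from the sample labels. FPKM were analysed as log2(FPKM + 1) without further scaling, for the 12923 of 24346 genes with a mean of at least 0.5. Genes low in C and NP could pass this filter through their N libraries alone, which favours a rise in N and a fall in NP. Among the called listed genes these were *Ciita*, *Gm12185*, *Gbp2b*, *Gbp8*, *Nkg7* and *Gzmb*. Each gene was fitted on its 3 group means in limma 3.58.1 (R 4.3.3, empirical Bayes with trend). Adjusted *P* values are by Benjamini-Hochberg over all genes tested per comparison, the threshold being 0.05. An exact permutation test of 2 against 2 libraries cannot go below 0.333, so none was used. Python 3.11.15, numpy 2.4.6, pandas 2.3.3 and matplotlib 3.10.9 were used for the rest. The fit and the depth estimate were tested on simulated data. Depth was estimated from the smallest steps of the FPKM of genes with 1 transcript in GENCODE M21, with 200 bases taken off the transcript length, and 73.3% to 79.1% of the low values came within 0.1 of whole reads. This covers counting error only.

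The 7 genes, the gene lists and the tests were chosen with earlier results of these data known. The named genes are the 7, all listed pathway and marker genes, genes within 500 kb and those with the most similar profile. *Olfr382* was named after its promoter was seen. Alternatives were other pseudocounts, filters, scalings and designs and the omission of single libraries. Protein sequences were not analysed here, and 1 listed gene is not reported here and is left out of the list counts.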

Additional observations from a re-analysis of the deposited data

How the results depend on the processing

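Each of the 7 genes kept its direction in N against C and in NP against N under every alternative. The N minus C difference of *F830016B08Rik* ranged from 6.34 to 6.60, that of *Igtp* from 5.38 to 5.97 and that of *Tgtp1* from 2.11 to 2.77. The median of the 7 was 3.71 to 4.47 in N against C and -4.81 to -4.12 in NP against N with a library left out, the lowest size being without N replicate 2. In NP against C, 4 of the 7 passed 1.5-fold without overlap with a pseudocount of 0.1, and *Igtp* (-0.36 to 0.06) and *Irgm1* (-0.02 to 0.19) took both signs.
The number of genes called by limma was 200 in N against C. It was 309 with FPKM scaled to the same total, which moves the median of all genes from -0.03 to 0.12, and 49 to 183 with a library left out. In NP against N 179 were called, and 78 with only the groups compared in the fit, where 16 listed pathway genes passed instead of 25, and 67 to 108 with a library left out. In NP against C 5 were called, 12 with a pseudocount of 0.1, 10 with the same total and 5 to 101 with a library left out. With no filter on low values limma called 0 of 17880, with 1353 at an unadjusted *P* value under 0.05. With a library left out, 9 to 22 listed pathway genes were called in N against C and 14 to 20 in NP against N. With 1 library left in a group, it was assumed to vary like the others.
Whether replicate numbers pair the samples was examined. The Pearson correlation of the replicate differences was 0.047 for C with N, 0.124 for C with NP and 0.458 for N with NP, and the names of the deposited N and NP files share a word by number, whose meaning the labels do not give. With no stated batch, the samples were left unpaired in the main fit. Anything that N and NP libraries with the same number shared therefore stays in its spread. With the replicate block, 328 genes were called in N against C, 200 in NP against N and 20 in NP against C. Depth limits the ligand genes and *Tgtp1* the most.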
